A study of Mus musculus with 6 samples.

Results

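The insulin-like growth factor (IGF) transcripts described here are 10 genes taken by symbol from the table of 35976 genes: the ligand Igf1, its receptor Igf1r, the adaptors Irs1 and Irs2, and the binding proteins Igfbp2, Igfbp3, Igfbp4, Igfbp5, Igfbp6 and Igfbp7. All 10 were found and all 10 passed the filter on low counts. The libraries came from C57BL/6 x 129S4/SvJae mouse chondrocytes isolated from hind limb articular cartilage at embryonic day 18.5 and expanded on tissue culture plastic for 16 population doublings. Both groups carried an inducible histone H3.3 transgene and both received doxycycline at 2 µg/ml to switch it on. In the H3K9M group (replicates 1, 3 and 5) lysine 9 of the transgene product is replaced by methionine, and the labels give H3K9 methylation as suppressed. In the H3WT group (replicates 1, 2 and 4) it encodes unmutated H3.3. Neither group lacked the drug or the transgene, so no library represents untreated or freshly isolated cells. The labels do not state whether the libraries came from separate animals, and the p-values measure only the spread between these 6 libraries.

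IGF1 and IGF2 bind the IGF1 receptor, a tyrosine kinase that phosphorylates the adaptor proteins IRS1 and IRS2 and so activates the PI3K-AKT and MAPK cascades. The binding proteins hold IGFs outside the cell, and proteases such as PAPPA release the ligand by cutting them. In cartilage, IGF1 supports chondrocyte proliferation and the synthesis of proteoglycan and collagen. H3K9 methylation is a mark of silenced chromatin.

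Total counts ranged from 15113675 to 19606082 per library. Counts of the 10 genes ranged from 52 reads for Igfbp3 in H3K9M replicate 5 to 27879 reads for Igfbp2 in H3WT replicate 4, so counting error was small beside the spread between libraries. The 11 chondrocyte markers in the table summed to 7327 to 11490 CPM (reads scaled to a common library size by TMM) in H3K9M and 7243 to 19220 in H3WT, with H3WT replicate 2 the highest, and each of the 11 was detected. All 11 had lower means in H3K9M, with a median log2 fold change of -1.03. At an unadjusted p under 0.05 (edgeR) 2 of them were lower, against 5.77% of all tested genes. The CPM ranges of the groups overlapped for all 11, while 19.4% of all tested genes had ranges that did not. Col2a1 had 4971, 5521 and 8421 CPM in H3K9M replicates 1, 3 and 5. In H3WT replicates 1, 2 and 4 it had 4913, 14110 and 9904 CPM. The part of these markers in the IGF values was not tested. In bulk RNA, fewer cells of one type and less RNA per cell cannot be told apart.

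The members lie on 7 chromosomes of GRCm38. Igfbp2 (chr1:72824480-72852474, plus strand) and Igfbp5 (chr1:72858065-72874865, minus strand) are neighbours, 5590 bases apart with their 3′ ends facing. Irs1 lies on the same chromosome (chr1:82233105-82291439, minus strand). Igfbp3 (chr11:7206086-7215498) and Igfbp4 (chr11:99040005-99052655) share chromosome 11. The others are Igfbp7 (chr5:77349240-77408045), Igf1r (chr7:67952257-68233668), Irs2 (chr8:10984681-11008929), Igf1 (chr10:87858265-87937047) and Igfbp6 (chr15:102144186-102149512). Igfbp7 overlaps Polr2b on the opposite strand, which had 1410 to 2456 reads per library. The strand setting of the counting is not stated, so reads from that overlap could be shared. Irs1 overlaps the opposite-strand gene Gm9747, which has no row in the table.

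The promoters of 4 members are shown because the results turn on these genes. Irs1 and Igfbp7 had the smallest p-values in each direction, Igfbp2 had the widest spread between libraries, and Igfbp5 is its neighbour. Each is the 250 bases before the RefSeq transcription start (GRCm38.p6), 5′ to 3′ on the strand of the gene, with GC boxes (GGGCGG or CCGCCC, the core letters bound by Sp1-type factors) in capitals.
Irs1, chr1:82291440-82291689, minus strand: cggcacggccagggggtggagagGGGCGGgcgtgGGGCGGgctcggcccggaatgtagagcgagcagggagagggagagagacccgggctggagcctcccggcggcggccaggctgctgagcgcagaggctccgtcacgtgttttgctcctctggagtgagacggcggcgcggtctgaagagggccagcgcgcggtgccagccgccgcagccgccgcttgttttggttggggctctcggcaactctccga
Igfbp7, chr5:77408046-77408295, minus strand: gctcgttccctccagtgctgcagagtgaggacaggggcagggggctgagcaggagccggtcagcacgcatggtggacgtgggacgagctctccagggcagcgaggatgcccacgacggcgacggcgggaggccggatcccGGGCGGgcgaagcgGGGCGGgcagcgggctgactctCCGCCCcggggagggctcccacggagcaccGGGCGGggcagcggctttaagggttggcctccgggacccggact
Igfbp2, chr1:72824230-72824479, plus strand: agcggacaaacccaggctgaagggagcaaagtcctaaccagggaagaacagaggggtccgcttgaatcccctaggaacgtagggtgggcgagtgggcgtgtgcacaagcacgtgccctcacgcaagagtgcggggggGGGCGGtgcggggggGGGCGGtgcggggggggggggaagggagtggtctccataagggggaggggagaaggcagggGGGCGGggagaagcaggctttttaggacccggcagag
Igfbp5, chr1:72874866-72875115, minus strand: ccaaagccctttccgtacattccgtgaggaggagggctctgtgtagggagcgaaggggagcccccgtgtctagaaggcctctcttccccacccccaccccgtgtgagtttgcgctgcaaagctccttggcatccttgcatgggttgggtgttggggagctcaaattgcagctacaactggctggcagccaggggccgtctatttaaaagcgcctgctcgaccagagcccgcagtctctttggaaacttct

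The Irs1 window held 2 GC boxes, that of Igfbp7 4, that of Igfbp2 3 and that of Igfbp5 0. A GC box on either strand was found in 5 of the 10 member windows and in 32.7% of 32841 RefSeq windows of this length. The observed-to-expected ratio of CpG dinucleotides was 0.90 for Irs1, 0.79 for Igfbp7, 0.61 for Igfbp2 and 0.46 for Igfbp5, against a median of 0.37 over all windows. It was highest for Igf1r (1.12) and lowest for Igf1 (0.30), the only member under that median. The windows of Igf1, Igfbp3 and Igfbp4 belong to starts 2846, 1575 and 1239 bases inside the annotated 5′ end of the gene. The E-box CACGTG was present in the windows of Irs1, Irs2 and Igfbp2, against 6.02% of all windows, and the FoxO letters GTAAACA or TGTTTAC in 0 of the 10, against 3.17%. The counts do not show which transcription start was used.

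None of the 10 IGF genes differed between H3K9M and H3WT at an adjusted p under 0.05 (quasi-likelihood test in edgeR, adjusted by Benjamini-Hochberg over 13761 genes), and 0% of all tested genes did. Mean levels were lower in H3K9M for 8 genes, from Igfbp2 (log2 fold change -2.30) to Igfbp3 (-0.16), and higher for 2, Igfbp6 (0.79) and Igfbp7 (0.66). The median log2 fold change of the 10 was -0.575, beside -0.003 over all tested genes, of which 50.4% were lower. At an unadjusted p under 0.05 there were 2 members higher (Igfbp6, Igfbp7) and 2 lower (Irs1, Igfbp5), against 6.42% and 5.77% of all tested genes in those directions. DESeq2 called 1 member, Irs1, where it called 2.83% of all genes, and limma-voom called 0 members and 0% of genes. Testing every gene with a count called 0 members and 0.180% of genes. The CPM ranges of the groups did not overlap for 3 members, against 19.4% of all tested genes. The plot of CPM by library shows every value.

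**Figure D1:**
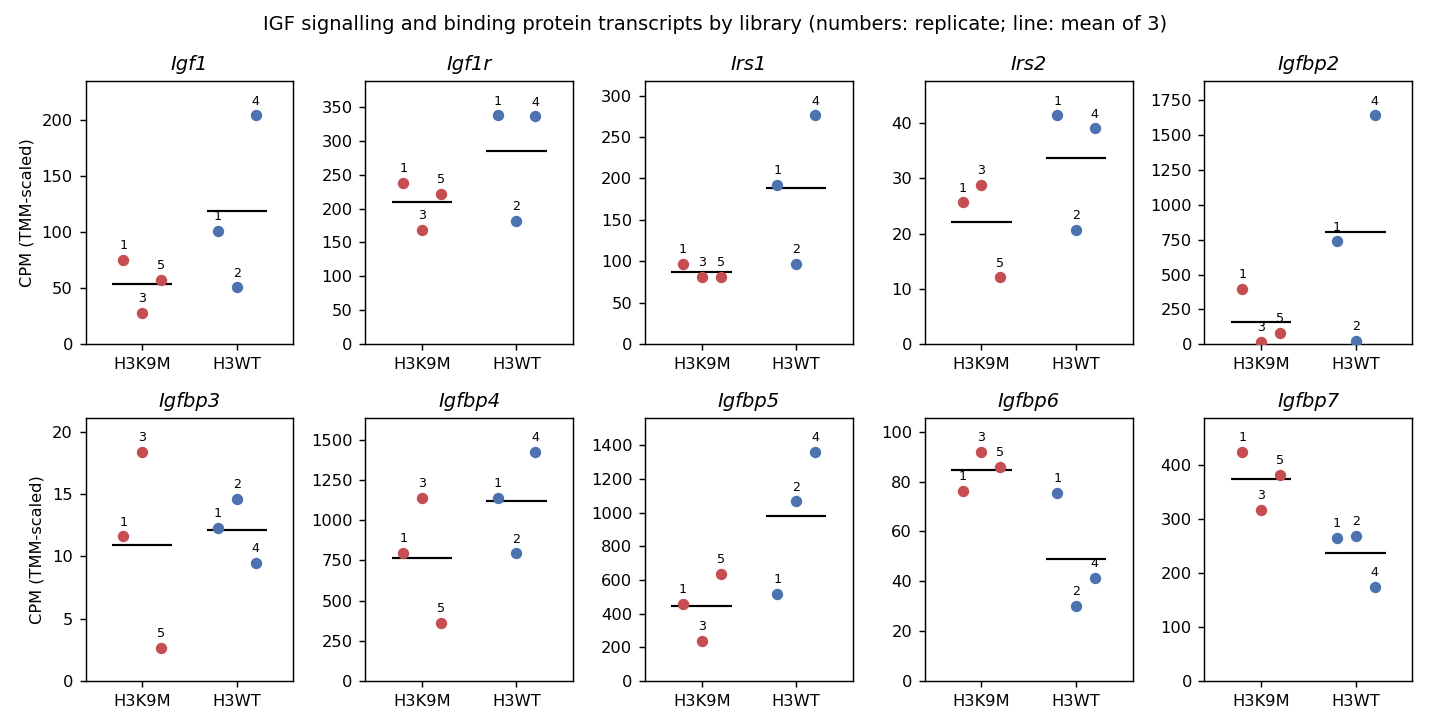
CPM (TMM-scaled, linear axis from 0) of the 10 IGF genes in each library, with points numbered by replicate and a line at the mean of the 3 libraries of a group. For Igf1, Igf1r, Irs1, Irs2 and Igfbp2 the highest 2 libraries are H3WT replicates 1 and 4, while Igfbp7 is higher in every H3K9M library (316 to 423 CPM) than in any H3WT library (174 to 268 CPM).

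Igf1, the ligand, had 75.5, 27.8 and 57.5 CPM in H3K9M replicates 1, 3 and 5, and 101 CPM, 50.8 CPM and 204.5 CPM in H3WT replicates 1, 2 and 4. H3WT replicate 2 lay among the H3K9M libraries, and the groups overlapped. The means were 53.6 ± 24.1 and 118.9 ± 78.3 CPM (SD, n = 3 each), a log2 fold change of -1.15 (SE 0.58, edgeR adjusted p 0.478). Without H3WT replicate 4 the log2 fold change was -0.51.

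Igf1r, which encodes the receptor, was the least variable member, with 2.00-fold between its highest and lowest library. It had 238, 169 and 222 CPM in H3K9M replicates 1, 3 and 5, and 337.5, 182 and 336 CPM in H3WT replicates 1, 2 and 4. H3WT replicate 2 again fell among the H3K9M values, so the groups overlapped. The log2 fold change was -0.44 (SE 0.25, edgeR adjusted p 0.512). Leaving out H3WT replicate 2 gave -0.67 (edgeR adjusted p 0.121). It was -0.299 without H3K9M replicate 3, -0.305 without H3WT replicate 1 and -0.307 without H3WT replicate 4.

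Irs1, the adaptor through which the IGF1 receptor recruits PI3K, had the smallest p of the members that were lower in H3K9M. Its values were 97.0, 81.2 and 81.4 CPM in H3K9M replicates 1, 3 and 5, and 193, 97.03 and 276 CPM in H3WT replicates 1, 2 and 4. All 3 H3K9M libraries lay below all 3 H3WT libraries, but H3K9M replicate 1 and H3WT replicate 2 were practically level. Irs1 was the only member separated in this direction, where 8.68% of all tested genes were. The means were 86.5 ± 9.07 and 188.6 ± 89.6 CPM (n = 3 libraries per group, SD), and the estimated log2 fold change was -1.12 (SE 0.35, 95% interval -1.94 to -0.31, edgeR adjusted p 0.29). It passed the threshold without H3WT replicate 2 (-1.43, adjusted p 0.0291, with 0.639% of genes called) and also with DESeq2 on all libraries (-1.13, adjusted p 0.0253). Without H3WT replicate 4 it was -0.74, and over all alternatives its adjusted p ran from 0.0253 to 0.534.

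Irs2, the second adaptor and itself a known FoxO target, was less abundant. It had 25.7, 28.9 and 12.1 CPM in H3K9M replicates 1, 3 and 5, and 41.4, 20.8 and 39.1 CPM in H3WT replicates 1, 2 and 4. The groups overlapped through H3WT replicate 2, and the log2 fold change was -0.60 (SE 0.38, edgeR adjusted p 0.556). It was -0.30 without H3K9M replicate 5. Per kilobase of exon, Irs1 had 15.04 ± 8.73 CPM and Irs2 4.42 ± 1.75 CPM over the 6 libraries (mean ± SD).

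Igfbp2 had the widest spread of the members, 116-fold between its highest and lowest library. It had 394, 14.1 and 79.4 CPM in H3K9M replicates 1, 3 and 5, and 737, 25.9 and 1642 CPM in H3WT replicates 1, 2 and 4. Each group held 1 library with little Igfbp2 and at least 1 with much more, and the groups overlapped. The log2 fold change of -2.30 had an SE of 1.59 and a 95% interval of -6.17 to 1.56 (edgeR adjusted p 0.609). It was -4.10 without H3K9M replicate 1 and -1.23 without H3WT replicate 4.

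For Igf1, Igf1r, Irs1, Irs2 and Igfbp2 the highest 2 libraries were H3WT replicates 1 and 4, an order found in 13.8% of all tested genes. Summed levels of 3 marker lists given here were also lowest of each group in the libraries where Igfbp2 was lowest. The adipocyte and tendon sums were lowest of each group in the same libraries. A sum weighs the abundant genes most, and not every marker followed it. The 5 smooth muscle markers (Acta2, Myh11, Cnn1, Tagln and Smtn, all tested) summed to 3933, 847 and 2199 CPM in H3K9M replicates 1, 3 and 5, and 4487, 1264 and 4393 CPM in H3WT replicates 1, 2 and 4. The 8 fibroblast markers summed to 29810, 11670 and 22920 CPM in H3K9M, and 34450, 9719 and 24000 CPM in the H3WT libraries, with the replicates listed as before. The abundant Col1a1 was lowest of each group in H3K9M replicate 3 (4962 CPM) and H3WT replicate 2 (3685 CPM). Pdgfra (236 and 243 CPM) and Lum (144 and 101 CPM) were instead highest of each group in those libraries. The 6 osteoblast markers summed to 75.2, 47.6 and 68.7 CPM in H3K9M replicates 1, 3 and 5, and 120.0, 51.5 and 98.3 CPM in H3WT replicates 1, 2 and 4. In H3K9M replicate 3 and H3WT replicate 2, Smtn (181 and 289 CPM) and Dmp1 (1.3 and 0.93 CPM) were not lowest of their group. Of the 5 smooth muscle markers all had lower means in H3K9M, of the 8 fibroblast markers 5 did, and of the 5 tested osteoblast markers 4 did. None of these 3 lists' genes was at 0 in all libraries. The part of these lists, and of the adipocyte and tendon lists, in these IGF values was not tested.

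Igfbp5, the neighbour of Igfbp2 and a binding protein that attaches to extracellular matrix, followed another order. It had 457, 240.1 and 638 CPM in H3K9M replicates 1, 3 and 5, and 518, 1067 and 1360 CPM in H3WT replicates 1, 2 and 4. Its second highest value was in H3WT replicate 2, where Igfbp2 had 25.9 CPM. The groups overlapped only because H3WT replicate 1 lay below H3K9M replicate 5. The log2 fold change was -1.14 (SE 0.45, edgeR adjusted p 0.393), with means of 445 ± 199 and 982 ± 427 CPM (SD, n = 3 each).

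Igfbp4, a binding protein that PAPPA cleaves, had 799, 1140.0 and 359.6 CPM in H3K9M replicates 1, 3 and 5, and 1138, 794 and 1425 CPM in H3WT replicates 1, 2 and 4. Its groups overlapped widely (log2 fold change -0.55, SE 0.42, edgeR adjusted p 0.641), and H3K9M replicate 5 held the lowest value. Without that library the log2 fold change was -0.20. Igfbp3, the main carrier of IGFs in serum, was the least abundant of the binding proteins among the members. It had 11.6, 18.4 and 2.65 CPM in H3K9M replicates 1, 3 and 5, and 12.3, 14.6 and 9.48 CPM in H3WT replicates 1, 2 and 4. H3K9M replicates held both its highest and its lowest value (log2 fold change -0.16, SE 0.60, edgeR adjusted p 0.946). Its sign changed to 0.32 without H3K9M replicate 5 and to 0.007 without H3WT replicate 2.

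Igfbp6, which binds IGF2 in preference to IGF1, and Igfbp7, which binds IGFs weakly, were the members with higher means in H3K9M. Igfbp6 had 76.2, 91.9 and 86.0 CPM in H3K9M replicates 1, 3 and 5, and 75.3, 30.2 and 41.5 CPM in H3WT replicates 1, 2 and 4. The groups did not overlap, but H3WT replicate 1 reached nearly to the lowest H3K9M library. The log2 fold change was 0.79 (SE 0.31, 95% interval 0.06 to 1.52, edgeR adjusted p 0.382). Leaving out H3WT replicate 1 raised it to 1.24.

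Igfbp7 had 423, 316 and 381 CPM in H3K9M replicates 1, 3 and 5, and 265, 268 and 174 CPM in H3WT replicates 1, 2 and 4. Every H3K9M library lay above every H3WT library, and H3WT replicate 2 lay beside H3WT replicate 1. The means were 373 ± 53.9 and 235.7 ± 53.6 CPM (n = 3 libraries per group, SD), with a log2 fold change of 0.66 (SE 0.20, 95% interval 0.21 to 1.11). Its p was the smallest of the 10 members, with an edgeR adjusted p of 0.266. Igfbp6 and Igfbp7 were the 2 members separated in this direction, where 10.7% of all tested genes were. When single libraries were left out, the log2 fold change of Igfbp7 was between 0.49 and 0.78. Igfbp7 is abundant in endothelium. The 6 endothelial markers together reached 0.306 to 0.628 CPM in H3K9M and 0.104 to 0.825 CPM in H3WT. Cdh5, Tie1 and Emcn had 0 counts in every library, while Tek had 44 reads in total, Pecam1 11 and Kdr 2. The part of these markers in the Igfbp7 values was not tested.

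**Figure D2:**
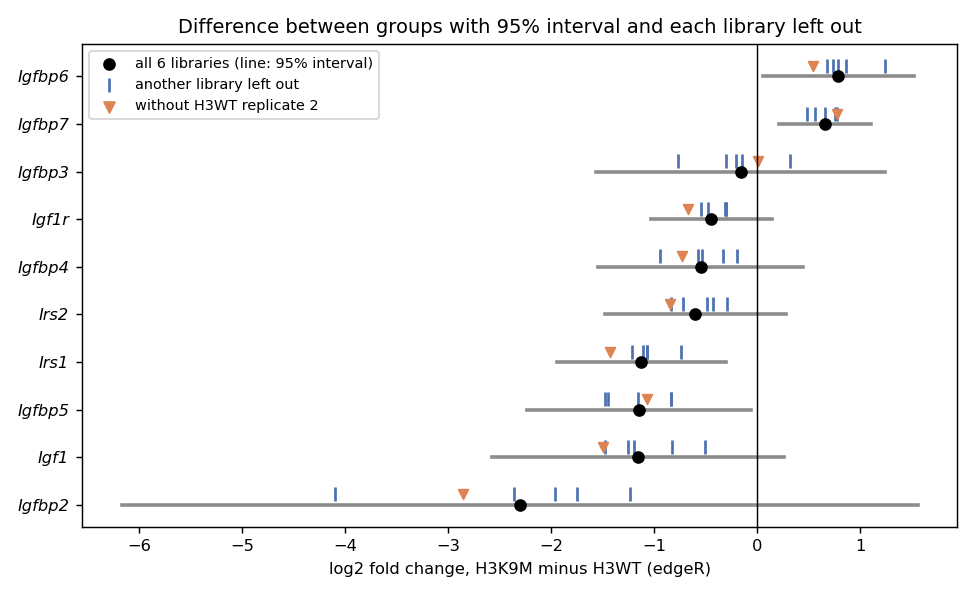
Log2 fold change of each member, H3K9M minus H3WT, from edgeR, with the 95% interval as a grey line, the 5 fits that left out another library as ticks and the fit without H3WT replicate 2 as a triangle. The intervals of Irs1, Igfbp5, Igfbp6 and Igfbp7 do not include 0 before adjustment, and that of Igfbp2 is the widest (-6.17 to 1.56).

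Per kilobase of exon, the binding proteins were the most abundant members apart from Igfbp3. Over the 6 libraries (mean ± SD) Igfbp2 had 261 ± 343, Igfbp7 252 ± 74.0 and Igfbp4 213 ± 84.3 CPM per kilobase, and these 3 did not differ beyond their spread. Igfbp5 had 119 ± 69.7 and Igfbp6 60.1 ± 22.5 CPM per kilobase. Irs1 (15.04 ± 8.73), Igf1r (14.7 ± 4.39) and Igf1 (8.71 ± 6.36) followed, again with overlapping spreads, and Irs2 (4.42 ± 1.75) and Igfbp3 (3.67 ± 1.69) were lowest. With the longest transcript as the length in place of the union of exons, Igf1r moved above Irs1 and Igfbp3 above Irs2.

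The makeup of the binding protein transcripts was compared next. Igfbp7 binds IGFs weakly and Igfbp6 prefers IGF2, so a share of these transcripts is not a share of IGF binding. The 6 Igfbp genes summed to 892.5, 656 and 624 CPM per kilobase in H3K9M replicates 1, 3 and 5, and to 1034, 625 and 1622 CPM per kilobase in H3WT replicates 1, 2 and 4. The sums overlapped, with means of 724 ± 147 and 1094 ± 501 (SD, n = 3 each, exact two-sided permutation p = 0.3). The smallest p this design allows is 0.1. Igfbp7 made up 39.2%, 39.9% and 50.5% of the sum in the H3K9M libraries, and 21.2%, 35.5% and 8.87% in the H3WT libraries. Igfbp6 made up 7.68%, 12.6% and 12.4%, against 6.55%, 4.35% and 2.30%. Neither share overlapped between the groups (exact two-sided permutation p = 0.1 each, 0.3 after adjustment over the 6 shares). Igfbp2 took 54.8% of the sum in H3WT replicate 4 and 1.16% in H3K9M replicate 3, and its share overlapped between groups (exact permutation p = 0.3). A share depends on the levels of the other members. The remaining shares, of Igfbp3, Igfbp4 and Igfbp5, overlapped as well.

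**Figure D3:**
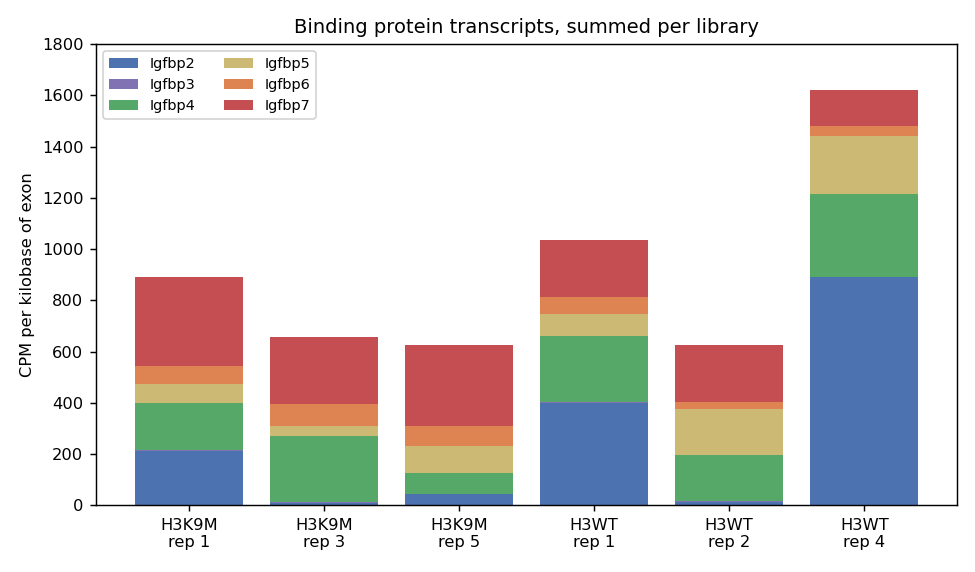
Stacked bars of the 6 Igfbp genes in each library, in CPM per kilobase of exon on a linear axis from 0. The Igfbp7 segment is larger in the 3 H3K9M libraries (261 to 350 CPM per kilobase) than in the 3 H3WT libraries (144 to 222), and the Igfbp2 segment ranges from 7.64 in H3K9M replicate 3 to 889 in H3WT replicate 4.

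The other genes of the pathway were read from the same fit in 4 lists, and none passed an adjusted p of 0.05 with edgeR, where 0% of all tested genes did. With limma-voom there were also 0, where 0% of all tested genes passed. With DESeq2 there were 5 (Htra1, Pappa, Stc1, Grb14 and Gadd45a), where 2.83% of all tested genes passed. Of the 17 ligands, receptors and extracellular regulators 12 were tested, with a median log2 fold change of -0.22. At an unadjusted p under 0.05 (6.42% of all genes higher, 5.77% lower) 2 were higher and 2 lower. Igfbp1 and Igfbpl1 had no reads. The pair of genes with the smallest p in each list is described below. That choice favours CPM ranges that do not overlap, which 19.4% of all tested genes had.

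Htra1, a secreted serine protease that cleaves several matrix proteins, had 463, 351 and 309.5 CPM in H3K9M replicates 1, 3 and 5, and 175, 197 and 212 CPM in H3WT replicates 1, 2 and 4. The groups were well apart (log2 fold change 0.94, SE 0.17, edgeR adjusted p 0.17, DESeq2 adjusted p 0.000335). Pappa, the protease that cuts Igfbp4 and Igfbp5 and frees IGF, had 97.9, 56.3 and 91.8 CPM in H3K9M and 190.1, 117 and 181 CPM in H3WT. Here too the groups did not overlap, in the other direction (log2 fold change -0.99, SE 0.26, edgeR adjusted p 0.239, DESeq2 adjusted p 0.0152).

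Igf2, the second ligand, was singled out after its values were seen. It had 879, 1687 and 1438 CPM in H3K9M replicates 1, 3 and 5, and 767, 3903 and 705 CPM in H3WT replicates 1, 2 and 4. It was highest in H3WT replicate 2, the library in which Igf1 was lowest within H3WT, and its groups overlapped. The log2 fold change of Igf2 was -0.42 (SE 0.72, edgeR adjusted p 0.867, DESeq2 adjusted p 0.918). The sign turned without H3WT replicate 2, with a log2 fold change of 0.87 (edgeR adjusted p 0.175), and limma-voom on all libraries gave 0.005.

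Of the 33 intracellular transducers 31 were tested, and their median log2 fold change was -0.06, with a range of -0.81 to 0.69. At an unadjusted p under 0.05 there were 2 higher and 2 lower, against 6.42% and 5.77% of all tested genes. Tsc2, a brake on mTOR complex activity, had 97.7, 107 and 105 CPM in H3K9M and 127, 134 and 134 CPM in the H3WT libraries, with no overlap. Its log2 fold change was -0.35 (SE 0.11, edgeR adjusted p 0.275, DESeq2 adjusted p 0.122). Pik3r1, the regulatory subunit of PI3K that docks on IRS proteins, had 52.0, 33.1 and 45.4 CPM in H3K9M and 88.8, 45.7 and 93.6 CPM in the H3WT libraries. Its log2 fold change was -0.81 (SE 0.29, edgeR adjusted p 0.346, DESeq2 adjusted p 0.142). Like Irs1, Pik3r1 was high in H3WT replicates 1 and 4 and low in H3WT replicate 2.

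All 15 inhibitors of the pathway were tested, with a median log2 fold change of 0.09. At an unadjusted p under 0.05, 3 were higher and 0 lower, against 6.42% and 5.77% of all tested genes. Grb14, an adaptor that inhibits the insulin receptor kinase, had 135, 122.5 and 152 CPM in H3K9M and 76.2, 99.6 and 83.0 CPM in H3WT, with no overlap (log2 fold change 0.66, SE 0.14, edgeR adjusted p 0.205, DESeq2 adjusted p 0.0147). Ddit4, a stress-induced inhibitor of mTOR complex activity, had 40.8, 36.5 and 51.5 CPM in H3K9M and 33.5, 25.7 and 25.5 CPM in the H3WT libraries (log2 fold change 0.60, SE 0.19, edgeR adjusted p 0.28, DESeq2 adjusted p 0.154). Its groups did not overlap either.

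Genes known as FoxO targets, which AKT signalling restrains, had differences of both signs. Of 16 such genes 14 were tested, with a median log2 fold change of 0.11. At an unadjusted p under 0.05, 3 were higher and 4 lower, against 6.42% and 5.77% of all tested genes. Gadd45a, a growth arrest and DNA damage response gene, had 28.3, 41.7 and 29.9 CPM in H3K9M and 10.9, 14.0 and 16.8 CPM in H3WT, with no overlap (log2 fold change 1.26, SE 0.24, edgeR adjusted p 0.17, DESeq2 adjusted p 0.00112). Cited2, a transcriptional coregulator, had 285, 255 and 311 CPM in H3K9M and 358, 385 and 425 CPM in the H3WT libraries (log2 fold change -0.46, SE 0.13, edgeR adjusted p 0.255, DESeq2 adjusted p 0.0579).

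**Figure D4:**
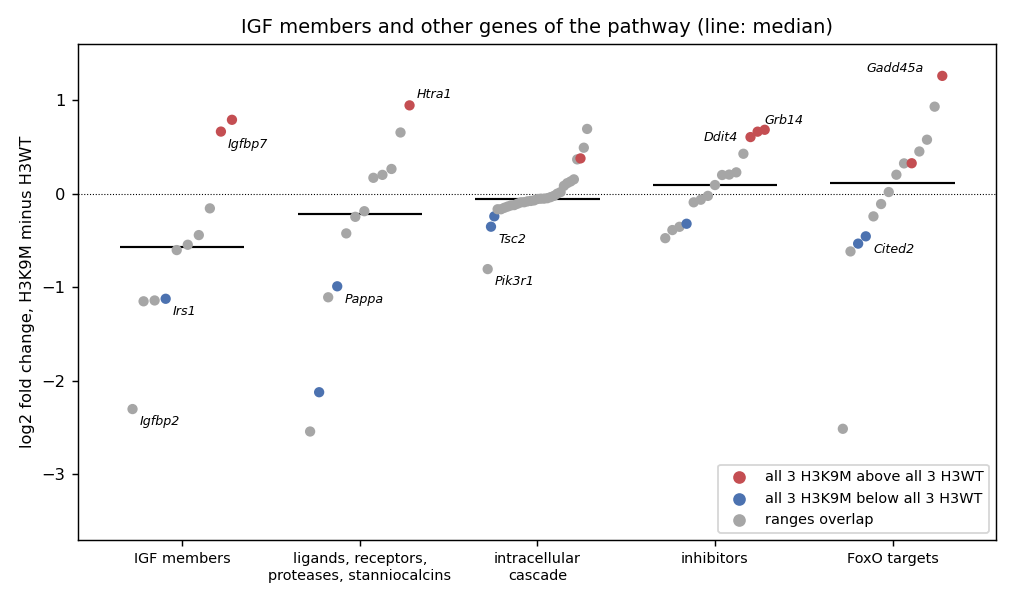
Log2 fold change, H3K9M minus H3WT, of the 10 members and of the tested genes of 4 pathway lists, each point a gene and each line the median of its list. Red and blue points are genes whose 3 H3K9M libraries all lie above or below the 3 H3WT libraries, and the medians run from -0.575 for the members to 0.11 for FoxO targets.

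The tested genes most like Irs1 over the 6 libraries, by the root-mean-square difference of log2 CPM centred on each gene's mean, were Osr1 (0.0942), Cercam (0.144) and Fat4 (0.176). Osr1, a transcription factor of limb connective tissue, had 29.4, 23.7 and 21.1 CPM in H3K9M replicates 1, 3 and 5, and 62.0, 28.3 and 83.5 CPM in H3WT replicates 1, 2 and 4. Those most like Igfbp7 were Rpl34 (0.10), a ribosomal protein gene, Mrps14 (0.105), of the mitochondrial ribosome, and Cycs (0.113), which encodes cytochrome c. Rpl34 had 216, 173 and 209 CPM in H3K9M and 153, 132 and 105 CPM in H3WT.

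The 10 skeletal muscle markers summed to 155, 226 and 21.2 CPM in H3K9M replicates 1, 3 and 5, and to 31.7, 11.1 and 25.8 CPM in H3WT replicates 1, 2 and 4, with Myf5, Pax7 and Myh8 at 0 counts throughout. Of its 4 tested genes 3 (Myod1, Myh3 and Des) had higher values in every H3K9M library than in any H3WT library, against 10.7% of all tested genes. Myod1 (0, 1.04 and 0 CPM) and Myh3 (0.67, 0 and 0 CPM) were near 0 in H3WT. They passed the filter on low counts through the H3K9M libraries, which favours such a separation. The 8 macrophage and blood markers summed to 11.4 to 22.9 CPM in H3K9M and 5.83 to 13.5 CPM in H3WT, with Ptprc, Adgre1 and Hbb-bs at 0. The part of these lists in the IGF values was not tested. The 8 proliferation markers summed to 827 to 1396 CPM in H3K9M and 993 to 1556 CPM in H3WT.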

How the data were processed

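Per the labels' protocols, 6 libraries of polyadenylated RNA, 3 per group, were made with a Tecan mRNA-Seq kit. The authors deposited raw counts of reads for each gene symbol, with a column for every library and no normalization. HISAT2, featureCounts and DESeq2 are named, with the build mm10 (GRCm38), per the submitters' processing notes. Annotation, strand and multi-mapping settings are not given in the sources used here. Groups were taken from the titles, and 0 columns belonged to other samples. Total counts of 15113675 to 19606082 make counting error small beside the spread between libraries (common biological coefficient of variation 0.336).

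Counts were fitted over all genes in R 4.3.3 with edgeR 4.0.16 (filterByExpr defaults, TMM, glmQLFit with robust estimation, glmQLFTest, genotype as the only term), and p-values were adjusted by Benjamini-Hochberg over 13761 genes at a threshold of 0.05. The SE is the log2 fold change divided by the square root of the F statistic. Log2 CPM used a prior count of 2. Lengths are the union of GENCODE M21 exons. Promoters came from the RefSeq GRCm38.p6 table, matched for 10 of 10 members by symbol, without bases after the start. Transcripts with at least 90% identity over 200 bases were sought with blastn 2.17.0, and found for Irs1 (Gm9747) and Igfbp4 (Hook3).

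The members, pathway lists and marker lists were chosen with earlier results of these data known. Named genes were all members, of each pathway list those past the threshold or, with none, the pair with the lowest p, and the 3 genes closest in pattern to the member with the smallest p in each direction. Alternatives were DESeq2 1.42.0, limma-voom (limma 3.58.1), DESeq2 size factors, library size alone, 2 other filters, a threshold of 0.01, the longest transcript as length, and leaving out each library. Counts were also simulated from these libraries, with each gene drawn independently and a small set of genes changed. There edgeR recovered 28.7% of genes changed 2-fold and 66.7% of those changed 4-fold among 13761 genes. Patterns shared between genes were left out, so these percentages do not give the sensitivity of the real comparison. Marker lists covered chondrocyte, fibroblast, smooth and skeletal muscle, macrophage and blood, endothelial, adipocyte, tendon and osteoblast genes and proliferation.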

Additional observations from a re-analysis of the deposited data

How the results depend on the processing

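No IGF member passed the threshold in the reported fit, and the count stayed at 0 with limma-voom, both other scalings, both other filters and a threshold of 0.01. DESeq2 called 1 member (Irs1), 5 other pathway genes and 390 genes in all. Testing every gene with a count gave 2 pathway genes (Htra1, Gadd45a) and 36 in all, and the cause of these differences was not tested. With 1 library left out, members called ran from 0 to 1 (Irs1, without H3WT replicate 2) and genes called over all from 0 to 91. The 91 came without H3WT replicate 2, and 2 without H3K9M replicate 3. Pathway genes stayed at 0 in those fits. The log2 fold change of Igfbp3 ranged from -0.766 to 0.316 over the fits without one library, turning sign without H3K9M replicate 5 (0.316) or H3WT replicate 2 (0.007), and the other 9 members kept their sign in all 12 fits. The difference in share between groups turned for Igfbp4 from -0.293 to 1.27 percentage points with the longest transcript as length, and it lay between -7.87 and 5.30 in the fits without one library. For Igfbp3 it lay between -0.162 and 0.217 in those fits. No paired analysis was possible because the groups share only 1 replicate number. Detection at lower or higher depth was not tested.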

Other observations

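Pappalysin and stanniocalcin transcripts, which control how fast binding proteins are cut, also varied between libraries. Pappa2, a protease that cleaves Igfbp5 and Igfbp3, had 16.6, 0.29 and 3.93 CPM in H3K9M replicates 1, 3 and 5, and 68.7, 1.56 and 49.0 CPM in H3WT replicates 1, 2 and 4. Its highest libraries were H3WT replicates 1 and 4, as for Igfbp2, and its groups overlapped (log2 fold change -2.54, SE 1.54, edgeR adjusted p 0.553, DESeq2 adjusted p 0.531). Without H3K9M replicate 1 the log2 fold change of Pappa2 was -4.24. That value rests on H3K9M libraries of 0.29 and 3.93 CPM, the first of them near 0, so its size is uncertain. Stc1, an inhibitor of these proteases, had 7.57, 1.16 and 4.59 CPM in H3K9M and 35.6, 9.65 and 12.4 CPM in H3WT, with no overlap (log2 fold change -2.12, SE 0.76, edgeR adjusted p 0.349, DESeq2 adjusted p 0.0457). The log2 fold change of Stc1 was -1.32 without H3WT replicate 1 and -2.74 without H3K9M replicate 1. Stc2, the related inhibitor, had 6.77, 1.69 and 4.69 CPM in H3K9M and 17.8, 1.92 and 8.54 CPM in H3WT, and its groups overlapped (log2 fold change -1.11, and -0.26 without H3WT replicate 1). These 3 genes were singled out after their values were seen.

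Marker sums of other lineages were also measured. The 6 adipocyte markers summed to 39.6 to 54.6 CPM in H3K9M and 40.7 to 77.9 CPM in H3WT, and the 5 tendon markers to 666 to 999.6 and 860.0 to 1758 CPM. Both sums were lowest of each group in H3K9M replicate 3 and H3WT replicate 2.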
